A study of Homo sapiens with 8 samples.

Results

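The 10 genes described here serve zinc handling in the cell. They comprise the metallothioneins MT1E, MT1F, MT1G, MT1M, MT1X and MT2A, the zinc exporter SLC30A1, the zinc importers SLC39A10 and SLC39A14, and the zinc-sensing transcription factor MTF1. They were taken by gene symbol from the 56832 gene rows of the count tables, and all 10 were found. The list had been chosen by its measured response to T3 after 6 h, with the 24 h values of the same genes also known. Member values at 6 h of T3 are therefore given as a description without a test. Of the 10 genes, 8 had enough counts to be tested among 14611 genes, and MT1G and MT1M did not.

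Ribosome-depleted total RNA was sequenced from Nthy-ORI, an epithelial cell line derived from normal human thyroid. In all groups the cells first spent 24 h without hormone, in medium free of phenol red with charcoal-stripped serum. The 4 groups of 2 libraries then received T3, the active thyroid hormone, at 10 nM for 24 h, the NaOH vehicle for 24 h, T3 at 10 nM for 6 h, or the vehicle for 6 h. The series asks how T3-dependent transcription through TR-beta relies on SWI/SNF chromatin remodelers. The labels do not say whether the 2 libraries of a group are separate cultures. P-values here thus reflect only the spread between these libraries, all of 1 cell line.

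Metallothioneins are small, cysteine-rich proteins that bind zinc and copper and buffer free zinc in the cytosol. When free zinc rises, MTF1 binds short metal response elements in the promoters of metallothionein genes and of SLC30A1, and transcription from them increases. SLC30A1 carries zinc out across the plasma membrane, whereas SLC39A10 and SLC39A14 carry it into the cytosol. In mouse and zebrafish, the Slc39a10 gene is known to be repressed through MTF1. Human metallothionein genes also respond to glucocorticoids and to several forms of stress.

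The metallothionein members lie side by side on the long arm of chromosome 16 in GENCODE 29 (GRCh38). In order they are MT2A (chr16:56608199-56609497), MT1E (chr16:56625475-56627112), MT1M (chr16:56632233-56633986), MT1F (chr16:56657694-56660698), MT1G (chr16:56666731-56668065) and MT1X (chr16:56682424-56684196). MT1G is on the minus strand and the other members of the cluster are on the plus strand. SLC30A1 (chr1:211571568-211578742) and MTF1 (chr1:37809567-37859620) are on the minus strand of chromosome 1, and SLC39A10 is on the plus strand of chromosome 2 (chr2:195575977-195737702). All 10 members are protein-coding genes.

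Promoter windows of 300 bases, from 250 before to 50 after the RefSeq transcription start (GRCh38.p14), were at hand for 5 of the 10 members, namely MT2A, MT1X, SLC30A1, SLC39A10 and MTF1. The 3 windows that hold 2 or more matches to the core of the metal response element are shown. Capitals mark each match to TGCGCNC or TGCACNC on either strand, with overlapping matches counted once. Each line runs from 5′ to 3′ along the strand of its gene.
MT2A, chr16:56608334-56608633, plus strand: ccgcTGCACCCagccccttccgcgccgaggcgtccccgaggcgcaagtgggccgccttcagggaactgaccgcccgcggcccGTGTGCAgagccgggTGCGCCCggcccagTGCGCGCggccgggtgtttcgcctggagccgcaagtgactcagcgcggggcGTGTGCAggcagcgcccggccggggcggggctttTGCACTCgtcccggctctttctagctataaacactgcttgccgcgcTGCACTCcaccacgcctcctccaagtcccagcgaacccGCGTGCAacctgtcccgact
MT1X, chr16:56682220-56682519, plus strand: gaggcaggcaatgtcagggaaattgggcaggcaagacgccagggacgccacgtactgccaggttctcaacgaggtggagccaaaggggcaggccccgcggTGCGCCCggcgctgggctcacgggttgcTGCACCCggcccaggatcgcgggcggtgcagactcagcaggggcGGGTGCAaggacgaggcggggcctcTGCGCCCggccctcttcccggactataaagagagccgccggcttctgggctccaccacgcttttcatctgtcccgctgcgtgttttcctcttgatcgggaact
SLC30A1, chr1:211579112-211579411, minus strand: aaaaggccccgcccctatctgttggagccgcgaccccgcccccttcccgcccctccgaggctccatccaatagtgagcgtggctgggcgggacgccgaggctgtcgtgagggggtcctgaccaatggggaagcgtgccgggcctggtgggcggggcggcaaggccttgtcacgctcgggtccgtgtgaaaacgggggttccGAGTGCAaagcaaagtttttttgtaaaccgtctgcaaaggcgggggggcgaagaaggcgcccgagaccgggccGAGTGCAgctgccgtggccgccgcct

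The MT2A window held 8 matches, a number reached by 0.0171% of the 35097 RefSeq windows. The MT1X window held 4, a number reached by 0.336% of windows. The SLC30A1 window held 2, which 7.5% of windows reach. SLC39A10 has 2 windows, of which 1 held no match and the other held 1, a number reached by 29.5% of all windows, and the MTF1 window held none. The thyroid hormone receptor half-site AGGTCA, searched on both strands, was not among the letters of any of these windows, while 13.8% of all windows hold it. The direct repeat of that half-site with a spacing of 4 bases (DR4) was not found there either, and 0.0199% of all windows hold it. A match is a string of letters and not a bound site.

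**Figure D1:**
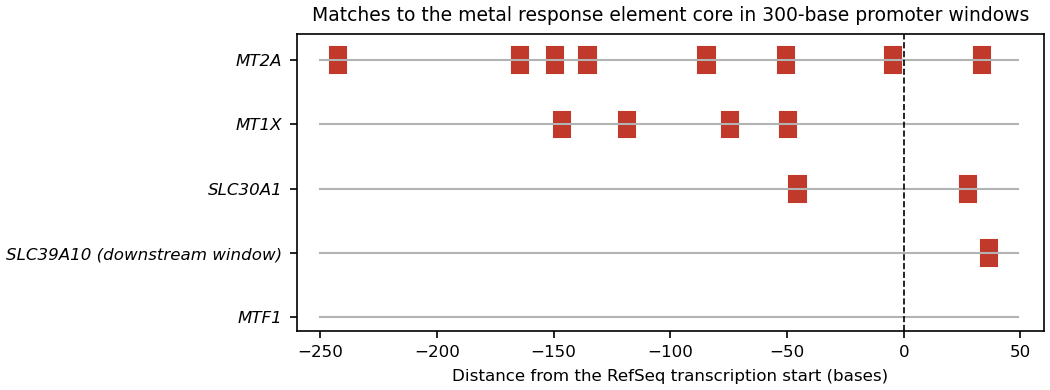
Position of each match to the metal response element core along the promoter window, in bases from the RefSeq transcription start (dashed line), for MT2A, MT1X, SLC30A1, SLC39A10 (the window farther downstream of 2) and MTF1. MT2A has 8 matches, MT1X 4, SLC30A1 2, SLC39A10 1 and MTF1 none.

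The count tables held 2517983 to 8201606 reads in genes per library, and levels are given as CPM, a gene's count scaled to the size of its library with TMM factors. A floor of 3 counts corresponds to 0.347 to 1.23 CPM. Non-unique reads took 47.6% to 67.4% of a library's table. The libraries of 24 h stood apart from those of 6 h. Over the tested genes, log2 CPM correlated at 0.687 to 0.769 between libraries of different times, and at 0.958 or more within 6 h and 0.961 or more within 24 h. KLF9 and HR, known targets of thyroid hormone receptors, served as a check of the labels. At 6 h, KLF9 averaged 13.7 ± 0.488 CPM with T3 and 0.861 ± 0.0607 CPM with vehicle (SD, n = 2 each; 3 and 2 vehicle counts). HR averaged 108.8 ± 9.92 CPM with T3 and 63.5 ± 7.01 CPM with vehicle. At 24 h both went against the labels, with KLF9 at 3.07 ± 0.399 CPM in the libraries labelled T3 and 26.1 ± 7.50 CPM in those labelled vehicle. HR averaged 0.213 ± 0.137 CPM (2 and 1 counts) and 4.09 ± 0.288 CPM in the same order of labels. Directions at 24 h therefore refer to the libraries as labelled. The difference between the T3 responses at 24 h and 6 h passed the threshold of adjusted p 0.05 for 1.84% of tested genes, KLF9 and HR among them.

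Of 8 thyroid follicular cell markers, 2 were tested, PAX8 and FOXE1, while TG and TSHR, which mark the differentiated thyroid cell, had no counts in any 6 h library. The summed level of the 8 thyroid markers was 134 to 136 CPM in libraries labelled T3 at 24 h, 136 to 178 CPM with vehicle at 24 h, 11.9 to 19.9 CPM with T3 at 6 h and 25.9 to 26.6 CPM with vehicle at 6 h. The 6 epithelial markers summed to 404 to 422, 476 to 576, 1125 to 1148 and 1064 to 1235 CPM in the same 4 groups. The 8 fibroblast markers, mostly COL1A1, summed to between 114 CPM with T3 at 6 h and 1254 CPM in a library labelled vehicle at 24 h, and were lower with T3 at each time. Endothelial, immune and thyroid C cell markers summed to at most 2.86 CPM in any library. The part of these shifts in the results below was not tested, and in bulk RNA fewer cells with a transcript cannot be told apart from less of that transcript per cell.

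After 6 h of T3, transcripts of MT1X, MT1F and MT2A and of the zinc exporter SLC30A1 stood well above vehicle. MT1E, SLC39A14, MTF1 and the importer SLC39A10 stood within 1.5 times of it, with SLC39A10 lower by 1.41 times. Of the 8 tested members, 5 passed the threshold at 6 h (4 higher, 1 lower), where 7.64% of all tested genes passed (3.78% higher and 3.86% lower). In 6 of the 8 the T3 and vehicle libraries did not overlap at 6 h, as for 59.7% of all tested genes. These counts follow from how the genes were chosen and are not support for the pattern. MT1X met the low-count minimum of 2.13 CPM in 2 libraries only through the T3 libraries of 6 h, which bears on its presence among the tested genes.

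MT2A, the most abundant metallothionein transcript in these cells, had 322 and 455 CPM with T3 at 6 h, against 72.6 and 82.7 CPM with vehicle. Both T3 libraries lay far above both vehicle libraries, at 389 ± 94.0 and 77.6 ± 7.08 CPM (SD, n = 2 each). Its log2 fold change was 2.33 (SE 0.24).

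MT1X, a further isoform of the cluster, had 104 and 131 CPM with T3 at 6 h, against 1.81 and 2.86 CPM with vehicle. It was near the limit of counting with vehicle (6 and 7 counts) and far above it with T3 (286 and 650 counts). Its log2 fold change was 5.68 (SE 0.36), and the ratio of pooled counts was 53.6 with an exact 95% counting interval of 31.2 to 101.

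MT1F had 23.2 and 28.0 CPM with T3 at 6 h, against 0.603 and 0.818 CPM with vehicle. The vehicle level rested on 2 counts in each library, so the ratio of pooled counts, 37.8, had a wide counting interval of 14.5 to 140. The log2 fold change was 5.16 (SE 0.55). Counting intervals cover counting error only, because the reads carry no molecular identifiers by which to count molecules.

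MT1E lay close to its vehicle level. It had 5.79 and 6.44 CPM with T3 at 6 h, against 4.82 and 4.09 CPM with vehicle, a log2 fold change of 0.45 (SE 0.38). The T3 libraries were the higher ones without overlap, but the counting interval of the pooled ratio, 1.38, ran from 0.836 to 2.31 and so included no difference.

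MT1G had 1 count in the whole series, in a T3 library of 6 h. MT1M had 4 counts, 1 in a vehicle library of 6 h and 3 in a library labelled vehicle at 24 h. Neither had more than 3 counts in any library, so no fold is given for them.

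The summed level of the 6 metallothionein members was 455 and 621 CPM with T3 at 6 h, against 79.9 and 90.8 CPM with vehicle. The ratio of the means was 6.30, with means of 538 ± 117 CPM and 85.4 ± 7.75 CPM (SD, n = 2 each). The sum was made because the copies resemble each other, with 65.4% identity between the MT1G and MT2A transcripts at the lowest and 80.0% between MT1E and MT1G at the highest. Of all 50-base stretches of the transcript, 95.1% in MT2A, 96.4% in MT1F and 89.4% in MT1E occurred in no other gene. In MT1X 44.2% did, and each of its shared stretches was shared with the overlapping noncoding gene AC026461.1 and none with another metallothionein. The sources used here do not give read length or the strand setting of the counting, so the level of each copy is uncertain. The sum is uncertain as well, because some stretches are shared with genes outside it, such as AC026461.1 for MT1X and MT2P1 for MT2A.

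**Figure D2:**
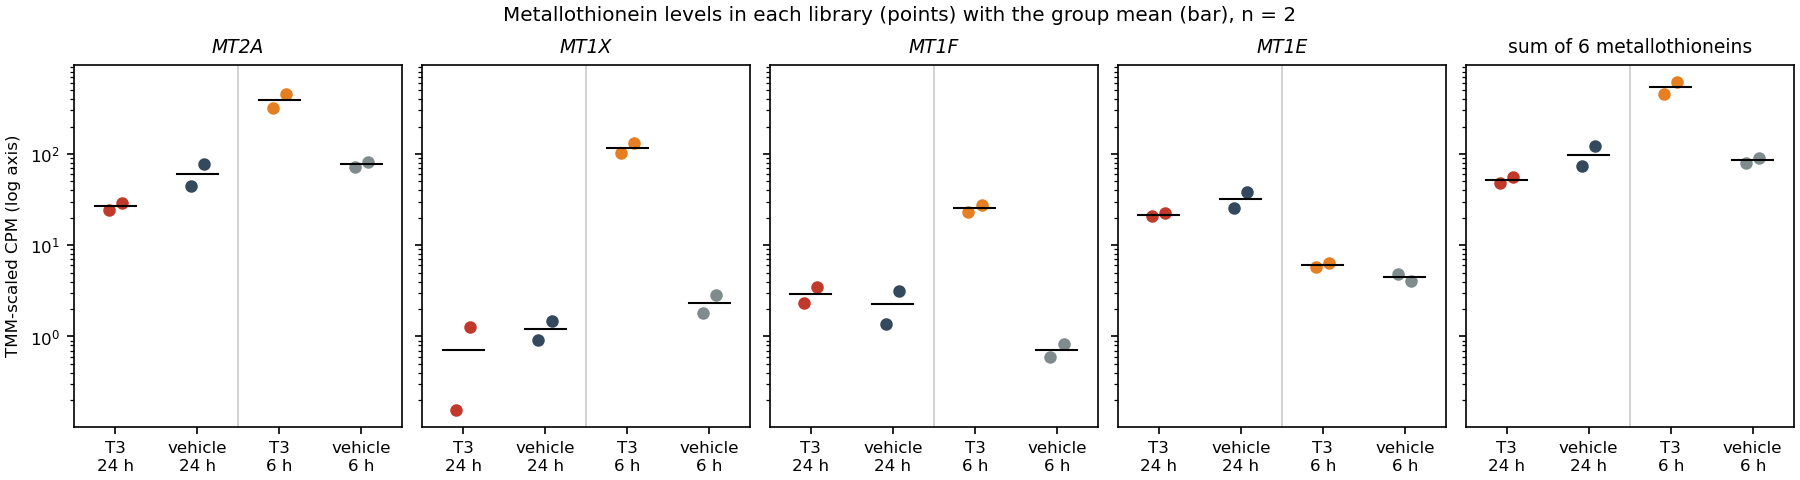
Levels of MT2A, MT1X, MT1F, MT1E and the sum of the 6 metallothionein members in TMM-scaled CPM on a log axis, 1 point per library and a bar for the mean of the 2 libraries of each group. The T3 libraries of 6 h lie at 455 and 621 CPM in the sum, and the other 6 libraries between 48.1 and 121 CPM.

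The make-up of the pool differed between groups as well. With T3 at 6 h MT2A made up 70.9% and 73.4% of the summed counts, against 90.9% and 91.0% with vehicle. MT1X made up 22.8% and 21.1% with T3 at 6 h and 2.26% and 3.15% with vehicle. MT1F made up 5.09% and 4.50% with T3 and 0.755% and 0.901% with vehicle, whereas MT1E made up 1.27% and 1.04% with T3 and 6.04% and 4.50% with vehicle. With T3 at 6 h the pool thus held more of MT1X and MT1F, and MT2A was the main transcript in both groups.

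Per kilobase of the longest protein-coding transcript, the level of MT2A at 6 h was 495 CPM per kb with T3 and 98.8 with vehicle. On that scale MT1X stood second with T3, at 218 CPM per kb, and had 4.34 with vehicle. MT1F had 37.0 CPM per kb with T3 and 1.03 with vehicle, and MT1E had 8.39 with T3 and 6.11 with vehicle. The order of levels was thus MT2A, MT1X, MT1F and MT1E with T3, and with vehicle MT2A led, followed by MT1E, MT1X and MT1F.

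**Figure D3:**
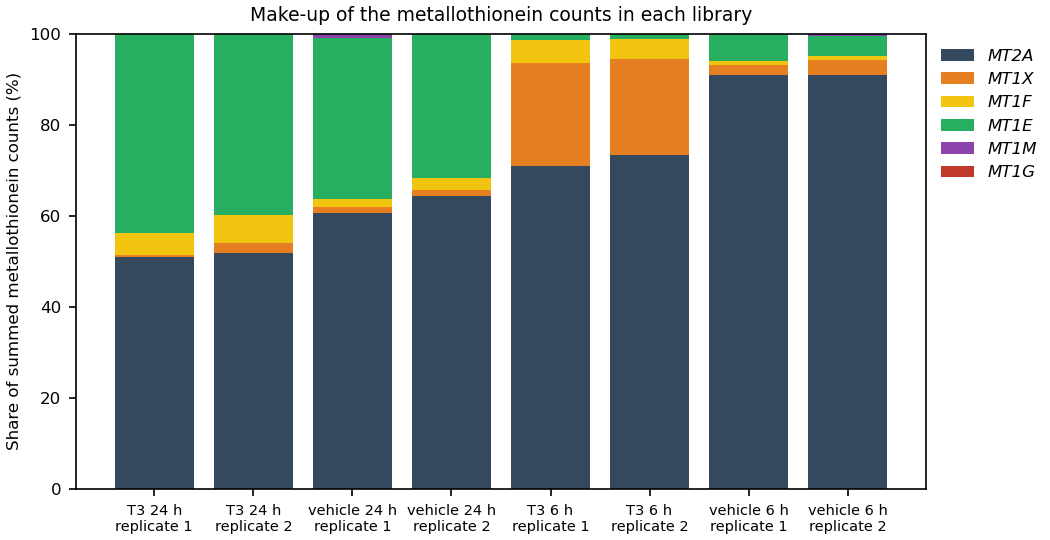
Share of each metallothionein in the summed metallothionein counts of each library, in percent. MT2A takes 90.9% and 91.0% with vehicle at 6 h and 70.9% and 73.4% with T3 at 6 h, and MT1E takes 31.8% to 43.9% in the 4 libraries of 24 h.

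SLC30A1 encodes the exporter that carries zinc out of the cell. It had 259 and 246 CPM with T3 at 6 h, against 70.8 and 76.9 CPM with vehicle, with the T3 libraries well clear of the vehicle libraries. The means were 252 ± 9.02 and 73.9 ± 4.31 CPM (SD, n = 2 each) and the log2 fold change was 1.77 (SE 0.13).

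SLC39A10 encodes an importer of the plasma membrane. It had 147 and 149 CPM with T3 at 6 h, against 189 and 229 CPM with vehicle, a log2 fold change of -0.49 (SE 0.13). Under 6 alternative settings that kept all libraries of 6 h, the log2 fold change ranged from -0.80 to -0.43. The gene passed the threshold in 4 of these 6. Both T3 libraries were lower than both vehicle libraries, but the gene no longer passed the threshold when any 1 of the 4 libraries of 6 h was left out, with log2 fold changes between -0.32 and -0.62, nor by DESeq2 or without the low-count filter.

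SLC39A14 (chr8:22367249-22434129, plus strand), an importer that also carries iron and manganese, had 176 and 152 CPM with T3 at 6 h, against 170.3 and 179 CPM with vehicle. The groups overlapped and the log2 fold change was -0.10 (SE 0.14). MTF1 itself had 21.7 and 21.5 CPM with T3 and 19.9 and 21.7 CPM with vehicle, again overlapping, with a log2 fold change of 0.06 (SE 0.22).

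**Figure D4:**
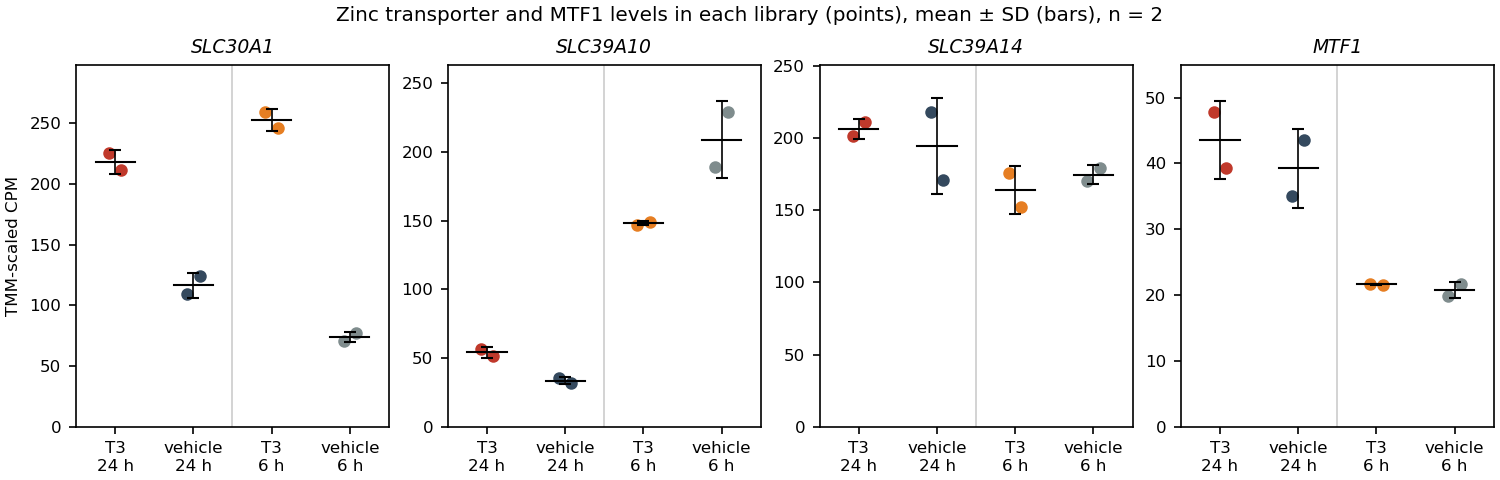
Levels of SLC30A1, SLC39A10, SLC39A14 and MTF1 in TMM-scaled CPM, 1 point per library, with the mean and SD of the 2 libraries of each group. SLC30A1 is higher in the T3 libraries than in the vehicle libraries at both times (252 and 73.9 CPM at 6 h), and SLC39A10 is lower at 6 h and higher at 24 h.

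At 24 h, as labelled, MT2A fell with T3, SLC30A1 and SLC39A10 rose, and the remaining 5 tested members did not pass the threshold. These 3 of 8 compare with 13.3% of all tested genes (5.58% higher and 7.75% lower). The 24 h values were also known when the list was chosen. This count and the members' adjusted p-values at 24 h are thus not independent of that choice. The libraries labelled T3 and vehicle did not overlap in 4 of the 8, MT1E and MT2A being lower and SLC30A1 and SLC39A10 higher, as for 52.7% of all tested genes. The median log2 fold change of all tested genes was -0.012 at 24 h and -0.020 at 6 h.

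MT2A had 24.5 and 29.1 CPM in the libraries labelled T3 at 24 h, against 44.3 and 77.9 CPM in those labelled vehicle. The vehicle libraries were both higher but far apart from each other. Its log2 fold change came to -1.20 (SE 0.25, edgeR adjusted p = 0.0111). The call was lost without either library labelled T3 at 24 h (edgeR adjusted p = 0.0918 and 0.0724) and with the trend by GC content and length removed (log2 fold change -0.98, edgeR adjusted p = 0.286), and the log2 fold change was -0.72 without the second vehicle library.

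MT1E had 21.1 and 22.3 CPM in the libraries labelled T3 at 24 h, against 25.8 and 38.4 CPM in those labelled vehicle (log2 fold change -0.57, SE 0.23, edgeR adjusted p = 0.102). Without the first vehicle library of 24 h it passed, at -0.86 (edgeR adjusted p = 0.0368). MT1F had 2.33 and 3.47 CPM in the libraries labelled T3, against 1.36 and 3.14 CPM, with overlap (log2 fold change 0.31, SE 0.45, edgeR adjusted p = 0.697). MT1X had 0.155 and 1.27 CPM, or 1 and 11 counts, against 0.904 and 1.49 CPM, or 4 and 10 counts (log2 fold change -0.65, SE 0.64, edgeR adjusted p = 0.54). Levels of MT1X at 24 h were thus near the limit of counting in all 4 libraries.

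The summed metallothionein level at 24 h was 48.1 and 56.2 CPM in the libraries labelled T3, against 73.0 and 121 CPM in those labelled vehicle. The ratio of the means was 0.538, or a log2 ratio of -0.90. MT1E and MT2A together made up nearly all of the pool at this time. MT1E made up 43.9% and 39.7% of the summed counts in the libraries labelled T3, against 35.3% and 31.8% in those labelled vehicle, and MT2A made up 51.0% and 51.9%, against 60.7% and 64.4%.

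SLC30A1 had 225 and 211 CPM in the libraries labelled T3 at 24 h, against 109 and 124 CPM in those labelled vehicle. The groups were well apart, and the log2 fold change was 0.90 (SE 0.12, edgeR adjusted p = 0.000474). It passed whichever library was left out, with log2 fold changes of 0.78 to 0.99. With the trend by GC content and length removed it was 0.56 (edgeR adjusted p = 0.0141). SLC30A1 thus stood higher in the libraries labelled T3 at both times.

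SLC39A10 had 56.9 and 51.2 CPM in the libraries labelled T3 at 24 h, against 35.3 and 32.0 CPM in those labelled vehicle (log2 fold change 0.69, SE 0.15, edgeR adjusted p = 0.00668). It passed whichever library was left out, but not with the GC and length trend removed (0.32, edgeR adjusted p = 0.25), nor in a fit of the 4 libraries alone (edgeR adjusted p = 0.0573). The GC content of a gene moved with the fold change over all genes at 24 h, with a median log2 fold change of 0.33 in the lowest of 5 equal bins of GC and -0.53 in the highest bin. At 6 h these medians were 0.30 and -0.31. SLC30A1 (38.0% GC) and SLC39A10 (37.6%) were in the lowest bin and MT1F (58.2%) in the highest, while MT2A, MT1X and MT1E (53.5% to 53.9%) were in the bin next to the highest.

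SLC39A14 had 202 and 211 CPM in the libraries labelled T3 at 24 h, against 218 and 171 CPM in those labelled vehicle (log2 fold change 0.09, SE 0.13, edgeR adjusted p = 0.701). MTF1 had 47.7 and 39.3 CPM, against 35.0 and 43.5 CPM (log2 fold change 0.14, SE 0.18, edgeR adjusted p = 0.658). For both genes the libraries of the 2 labels overlapped at each time.

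**Figure D5:**
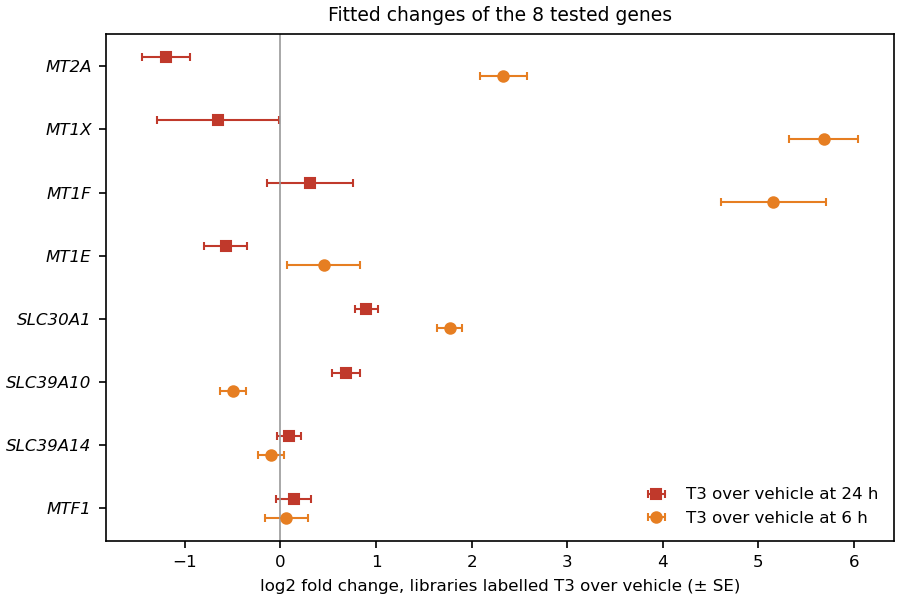
Fitted log2 fold changes of the 8 tested members, libraries labelled T3 over vehicle, at 24 h (squares) and 6 h (circles), with bars of 1 SE. MT2A is at -1.20 at 24 h and 2.33 at 6 h, SLC39A10 at 0.69 and -0.49, and SLC30A1 is above 0 at both, at 0.90 and 1.77.

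Between the times, 64.5% of tested genes passed the threshold for vehicle at 24 h over vehicle at 6 h (31.9% higher, 32.6% lower) and 70.4% for T3 at 24 h over T3 at 6 h (35.1% higher, 35.2% lower). These comparisons share the 6 h libraries by which the members were chosen, and time cannot be told apart from whatever else set the libraries of the 2 times apart, so the member values are a description. With vehicle the metallothionein sum hardly moved, at 97.0 ± 33.9 CPM at 24 h and 85.4 ± 7.75 CPM at 6 h (SD, n = 2 each), and the log2 ratio of 0.18 turned to -0.23 without the second vehicle library of 24 h. In the libraries labelled T3 it averaged 52.1 ± 5.77 CPM at 24 h and 538 ± 117 CPM at 6 h, so the sum at 6 h was 10.3 times that at 24 h.

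MT1E had a higher level at 24 h under both labels, at 21.7 ± 0.876 CPM with T3 at 24 h and 6.11 ± 0.457 CPM with T3 at 6 h, and at 32.1 ± 8.95 CPM with vehicle at 24 h and 4.46 ± 0.517 CPM with vehicle at 6 h. The log2 fold changes were 1.81 (SE 0.28) for T3 and 2.84 (SE 0.31) for vehicle. MTF1 was also higher at 24 h, by log2 1.01 (SE 0.20) for T3 and 0.93 (SE 0.21) for vehicle. SLC39A10 went the other way, with log2 fold changes of -1.46 (SE 0.14) for T3 and -2.64 (SE 0.15) for vehicle. SLC30A1 averaged 218 ± 9.91 CPM with T3 at 24 h and 252 ± 9.02 CPM with T3 at 6 h, and 117 ± 10.3 CPM with vehicle at 24 h and 73.9 ± 4.31 CPM with vehicle at 6 h. Its log2 fold changes were -0.21 (SE 0.12) for T3 and 0.66 (SE 0.13) for vehicle. With the GC and length trend removed they became -0.93 and -0.019. The same removal gave 2.96 and 3.86 for MT1E and -2.24 and -3.36 for SLC39A10, for T3 and vehicle in turn, so the directions of these 2 genes held while the sizes grew.

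Genes of the same pathways outside the 10 members were read from lists of related families. Of 12 other metallothionein genes and pseudogenes with a row, MT1L alone was tested. This pseudogene had 0 and 0.402 CPM with T3 at 6 h, against 1.51 and 2.46 CPM with vehicle (log2 fold change -2.82, SE 1.18, edgeR adjusted p = 0.157; 2 counts in all with T3). At 24 h it had 2.02 and 0.578 CPM in the libraries labelled T3, against 4.29 and 2.09 CPM in those labelled vehicle (edgeR adjusted p = 0.249).

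At 6 h no other zinc or copper transporter or chaperone passed the threshold by edgeR or DESeq2. This covers 6 tested SLC30 genes, here called exporters because most of the family move zinc out of the cytosol. Of these, 1 was higher and 1 lower by edgeR at unadjusted p under 0.05. Also covered are 9 tested SLC39 importers (0 and 1) and 14 tested copper-handling genes (1 and 3). Their median log2 fold changes were 0.22, -0.08 and -0.03, beside -0.020 over all tested genes. SLC30A1 was thus the only tested exporter past the threshold at 6 h in that fit, which is the contrast it was chosen by.

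At 24 h 1 of 6 SLC30 exporters rose, 1 of 9 SLC39 importers fell and 1 of 14 copper-handling genes rose, with median log2 fold changes of 0.33, 0.07 and 0.03 over the lists. Over all tested genes 5.58% were higher and 7.75% lower, so 1 gene in lists of this size does not set a list apart. SLC30A7, which loads zinc into the secretory pathway, had 113 and 117 CPM in the libraries labelled T3 at 24 h, against 78.0 and 77.7 CPM in those labelled vehicle (log2 fold change 0.56, SE 0.15, edgeR adjusted p = 0.019). SLC39A7, which releases zinc from the endoplasmic reticulum and Golgi, had 58.6 and 55.7 CPM, against 90.6 and 81.2 CPM (log2 fold change -0.59, SE 0.14, edgeR adjusted p = 0.0139). COX11, a copper chaperone of cytochrome oxidase, averaged 72.0 ± 8.15 CPM, against 49.98 ± 4.73 CPM (log2 fold change 0.53, SE 0.15, edgeR adjusted p = 0.0305), and did not pass by DESeq2 (adjusted p = 0.0887). None of the 3 passed with the GC and length trend removed or without the second library labelled T3 at 24 h, and without the second vehicle library of 24 h only 1 gene of these lists passed.

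Between the times, listed exporters past the threshold were higher and listed importers lower. The direction of the lists was not tested against other genes. For vehicle at 24 h over vehicle at 6 h, 4 of 6 SLC30 exporters were higher and 0 lower, among them SLC30A4 at 22.0 ± 0.863 CPM and 4.81 ± 0.441 CPM (SD, n = 2 each). Of 9 SLC39 importers 0 were higher and 4 lower, among them SLC39A1 at 90.04 ± 11.3 CPM at 24 h and 302 ± 35.3 CPM at 6 h. For T3 at 24 h over T3 at 6 h the counts were 5 and 0 for the exporters and 0 and 5 for the importers. Copper-handling genes were split, with 3 higher and 6 lower for vehicle and 5 and 5 for T3. Among them SOD1, the cytosolic copper-zinc superoxide dismutase, had a log2 fold change of -1.32 (SE 0.12) for vehicle. Over all tested genes 31.9% were higher and 32.6% lower for vehicle, and 35.1% and 35.2% for T3. The member importer SLC39A14, which is outside these lists, was higher for T3 at 24 h over T3 at 6 h (log2 fold change 0.34, SE 0.13). It did not pass by DESeq2, with the replicate block, without the low-count filter or with the GC and length trend removed. With 1 library left out its log2 fold change was 0.23 to 0.43. The median log2 fold change between the times ran from 0.72 in the lowest GC bin to -0.96 in the highest for vehicle, and from 0.73 to -1.20 for T3, and its part in these counts was not tested.

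Glucocorticoid targets were read because metallothionein genes also respond to that hormone. Of 10 tested, KLF9, which T3 also induces, was the only gene past the threshold at 6 h. By unadjusted p under 0.05 (edgeR), 3 were higher and 4 lower. TSC22D3, a defining target of the glucocorticoid receptor, did not pass at 6 h (log2 fold change -0.57, SE 0.24, edgeR adjusted p = 0.157). At 24 h PER1 (log2 fold change -2.05, edgeR adjusted p = 0.0093) and KLF9 were lower in the libraries labelled T3.

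The protein-coding genes that flank the metallothionein cluster on either side, BBS2 and NUP93, were looked at after the member values were seen and were chosen by position. BBS2 (chr16:56466836-56520283), a gene of the ciliary BBSome, had 85.5 ± 1.96 CPM with T3 at 6 h and 87.5 ± 3.33 CPM with vehicle (SD, n = 2 each; log2 fold change -0.04, SE 0.15, edgeR adjusted p = 0.92). NUP93 (chr16:56730105-56850286), a nuclear pore gene, had 145 ± 3.74 and 115 ± 12.7 CPM (log2 fold change 0.33, SE 0.14, edgeR adjusted p = 0.178). At 24 h their log2 fold changes were -0.04 and -0.18 (edgeR adjusted p = 0.912 and 0.432). Neither flanking gene thus passed the threshold at either time.

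The genes whose pattern over the 8 libraries was most like that of the metallothionein sum were found by the root mean square difference of centred log2 CPM (prior count 2). The measure had a median of 1.38 and a 1st percentile of 0.885 over all tested genes outside the metallothioneins. The nearest was TMEM158, a membrane protein gene, at 0.436. It averaged 9.21 CPM with T3 at 6 h and 1.22 CPM with vehicle at 6 h. At 24 h it averaged 0.464 and 0.561 CPM in the libraries labelled T3 and vehicle. Its averages outside T3 at 6 h thus lay within the range of the counting floor, 0.347 to 1.23 CPM. The likeness of TMEM158 therefore rests mainly on T3 at 6 h, the treatment by which the members were chosen. HSPA1B (0.532) and HSPH1 (0.620), both heat shock chaperone genes, came next. Both were highest with T3 at 6 h, so their likeness rests largely on that treatment as well. HSPA1B averaged 305 CPM with T3 and 74.7 CPM with vehicle at 6 h, and 35.6 and 33.8 CPM in the libraries labelled T3 and vehicle at 24 h. HSPA1A is a near-identical copy of HSPA1B, so how many reads of each were counted is uncertain. HSPH1 averaged 987 CPM with T3 and 298 CPM with vehicle at 6 h, and 283 and 247 CPM in the libraries labelled T3 and vehicle at 24 h. The averages of HSPA1B and HSPH1 were thus not lower with the T3 label at 24 h. The metallothionein sum was lower there, at 52.1 CPM with the T3 label and 97.0 CPM with the vehicle label. CTD-2203K17.1 (0.643) and PSG4 (0.646), a pregnancy-specific glycoprotein gene, followed.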

How the data were processed

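RNA was measured in 8 libraries of Nthy-ORI cells. The deposited values are raw read counts per gene symbol, in 1 table for each library. The submitters' processing notes name STAR 2.7, HTSeq, CASAVA 1.7 and DESeq2 and the build hg38. The sources used here do not give the annotation release or the strand setting, so overlapping and antisense genes can share reads. Summary rows that name no gene were left out of library sizes and tests, and reads in genes made up 12.9% to 24.4% of a table. No 2 libraries of a group agreed within sampling noise (chi-square over its degrees of freedom 2.52 to 24.6), so each counted as 1 sample.

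Counts were fitted in edgeR 4.0.16 (R 4.3.3) with TMM scaling, the filterByExpr filter and a robust quasi-likelihood F test, 1 coefficient per group over all 8 libraries with 4 residual degrees of freedom. P-values were adjusted by Benjamini-Hochberg over 14611 genes, with a threshold of 0.05, and are two-sided. The biological coefficient of variation was 13.1%. Levels are TMM-scaled CPM, and SDs are over the 2 libraries of a group. The metallothionein sum and the make-up of the pool have no test. Alternatives were DESeq2 1.42.0, RLE size factors, no low-count filter, a replicate block, the 4 libraries compared alone, each library left out, and removal of each library's trend by GC content and length (GENCODE 29, which holds 12600 of the tested genes by symbol). The fit was tested on simulated counts with 200 changed genes. It recovered 63% of changes of log2 1 and 94% of log2 2 in the comparison at 6 h (14353 genes), and 82% and 96% in that at 24 h (14271 genes). Of its calls 7.65% and 6.32% were false at 6 h and 24 h. The changed genes were drawn only from the better expressed genes, so the recovered shares do not cover genes with few counts. No trend by GC content was simulated between the groups compared, so the false shares do not cover such a trend.

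Members and lists were chosen with earlier results of these data known. Genes named are the 10 members, KLF9 and HR, up to 4 genes past the threshold from each list in each comparison, and the 5 nearest patterns. Some genes of these lists are not reported here. Lists covered other metallothioneins, SLC30 and SLC39 transporters, copper handling, glucocorticoid targets and cell type markers.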

Additional observations from a re-analysis of the deposited data

Results flagged for a closer look

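For MT1E, MT2A and SLC39A10, both libraries labelled T3 lay on one side of both vehicle libraries at 24 h and on the opposite side at 6 h. The groups did not overlap for 59.7% of all tested genes at 6 h and 52.7% at 24 h. The share of genes with opposite placement was not counted, so this placement does not set the 3 genes apart. MT1E passed the threshold at neither time. The log2 response at 24 h minus that at 6 h was -1.03 for MT1E, -3.53 for MT2A and 1.18 for SLC39A10. For these 3 genes no p-value of the difference is given, because the 6 h response was used to choose them. The same opposite placement was seen for KLF9 (-7.03, edgeR adjusted p = 4.08e-06) and HR (-4.96, edgeR adjusted p = 0.000128), the genes used to check the labels.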

How the results depend on the processing

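Genes past the threshold at 6 h numbered 1117, and 462 with the GC and length trend removed, 2898 with the 4 libraries alone and 131 to 1681 with 1 library left out. At 24 h they numbered 1948, and 196, 702 and 1128 to 2056 under the same settings, and 1184 by DESeq2. Members past the threshold numbered 5 at 6 h (4 or 5 with 1 library left out) and 3 at 24 h (2 to 4 with 1 left out), and 1 at 24 h with the GC and length trend removed. Other zinc and copper genes numbered 0 at 6 h, 4 with the 4 libraries alone and 0 to 1 with 1 left out. At 24 h they numbered 3, 0 with the GC and length trend removed and 0 to 4 with 1 left out. The replicate numbers did not pair the libraries, with deviations correlated at -0.00362 at 6 h and -0.0437 at 24 h. With the replicate block, 883 genes passed at 6 h and the members past the threshold stayed at 5 and 3 in number.

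Log2 fold changes that turned sign with 1 library left out ranged at 6 h from -0.19 to 0.013 for SLC39A14 and from -5.18e-05 to 0.15 for MTF1. At 24 h they ranged from -0.13 (and -0.049) to 1.09 for MT1F, from -2.82 to 0.010 for MT1X, from -0.084 to 0.24 for SLC39A14 and from -0.038 (and -0.015) to 0.30 for MTF1. None of these had passed the threshold. For vehicle at 24 h over vehicle at 6 h they ranged from -0.79 to 0.032 for MT2A, from -0.0073 to 0.33 for SLC39A14 and from -0.23 to 0.50 for the metallothionein sum. With the GC and length trend removed, that comparison gave 0.63 for MT2A and -0.019 for SLC30A1. The cause was not tested.

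Depth limits MT1F with vehicle at 6 h and MT1X at 24 h to a few counts, and it gives no level for MT1G and MT1M beyond the limit of 3 counts per library.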
